A study of Bos taurus with 12 samples.

Results

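CSF1R, AIF1 and CD53 are 3 genes of macrophages and other leukocytes, described here in the rumen wall of dairy cows moved from forage to grain. They were taken as every probe set whose single gene symbol is one of these names, and the names were selected on earlier results of these arrays, so that their log2 values in all weeks count as used in the choice. The array had 1 probe set for each, so the genes account for 3 of 24016 probe sets other than controls, which name 9155 genes in all. The study sampled papillae, the finger-like projections through which the rumen takes up fatty acids, in the ventral sac of 4 Holstein cows. Each cow was sampled on a high forage diet (week 0, the control) and again after the switch to grain, in weeks 1 and 3, for 12 arrays in all. The replicates of a week are separate animals, and the same animals recur in every week. All cows changed diet at the same time, so the effect of grain and that of elapsed time cannot be told apart.

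Macrophages arise from monocytes and from resident precursors, and sit in the connective tissue core of a papilla beneath the stratified epithelium. CSF1R is the receptor tyrosine kinase for the growth factors CSF1 and IL34, and its signal keeps macrophages and Langerhans cells alive. AIF1, also called IBA1, is a calcium-binding protein of the cytosol that bundles actin and is widely used to stain macrophages. CD53 is a tetraspanin, a membrane protein that organises other proteins at the cell surface, and is carried by most kinds of leukocyte.

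The deposited values are log2 values centred on each probe set, so that 0 is the median of that probe set over the 12 arrays. They compare arrays and hold no absolute level, so neither the abundance of these genes nor the presence of rumen epithelial markers could be checked, and the levels of different genes cannot be ranked. Each value comes from whole papillae, where fewer cells of a type and less RNA per cell cannot be told apart. The 3 genes had been picked with results of these same arrays known. Their weekly values are therefore a description with no test.

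All 3 genes were higher in the third than in the first week of grain in every cow. CSF1R and CD53 were lower in week 1 than on forage in every cow, while AIF1 was lower in cows 1 and 2 and higher in cows 3 and 4. AIF1 was the member that stood above its forage value at week 3 in every cow. The cows themselves differed widely, with cows 1 and 2 above cows 3 and 4 for each gene at each week.

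For CSF1R, the receptor, cows 1 to 4 had log2 values of 0.53, 0.13, -0.33 and -0.08 on forage. In week 1 the same cows had values of 0.08, -0.22, -0.88 and -0.27. In week 3 they had 0.56, 0.63, 0.31 and -0.11. Cow 3 in week 1 was the lowest of the 12 arrays and cow 2 in week 3 the highest, and the ranges of the weeks overlapped. The weekly means were 0.06 ± 0.37, -0.32 ± 0.40 and 0.35 ± 0.34 (SD, n = 4) at weeks 0, 1 and 3.

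For AIF1, the actin-bundling protein, the forage values of cows 1 to 4 were 0.29, 0.17, -0.98 and -1.88. In week 1 they were 0.0075, -0.0075, -0.21 and -1.09. In week 3 they were 1.03, 0.90, 0.08 and -0.10. Cows 1 and 2 were nearly equal to each other in each week, and cow 4 was the lowest in each, while the ranges of the weeks overlapped. The weekly means were -0.60 ± 1.03, -0.33 ± 0.52 and 0.48 ± 0.57 (SD, n = 4) at weeks 0, 1 and 3. The range over the cows was 2.17 on forage, 1.09 in week 1 and 1.13 in week 3, so the animals lay closer together on grain.

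For CD53, the tetraspanin, cows 1 to 4 had 1.76, 0.72, -0.22 and -0.87 on forage. In week 1 they had 1.27, -0.30, -1.19 and -3.08. In week 3 they had 2.11, 1.53, 0.22 and -1.10. The cows kept the order 1, 2, 3, 4 in each week, and cow 4 in week 1 lay far below the other arrays, while the ranges of the weeks overlapped. The weekly means were 0.35 ± 1.15, -0.82 ± 1.81 and 0.69 ± 1.43 (SD, n = 4) at weeks 0, 1 and 3. The range over the cows was 2.63, 4.35 and 3.21 at weeks 0, 1 and 3, so it was widest in the first week of grain.

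**Figure D1:**
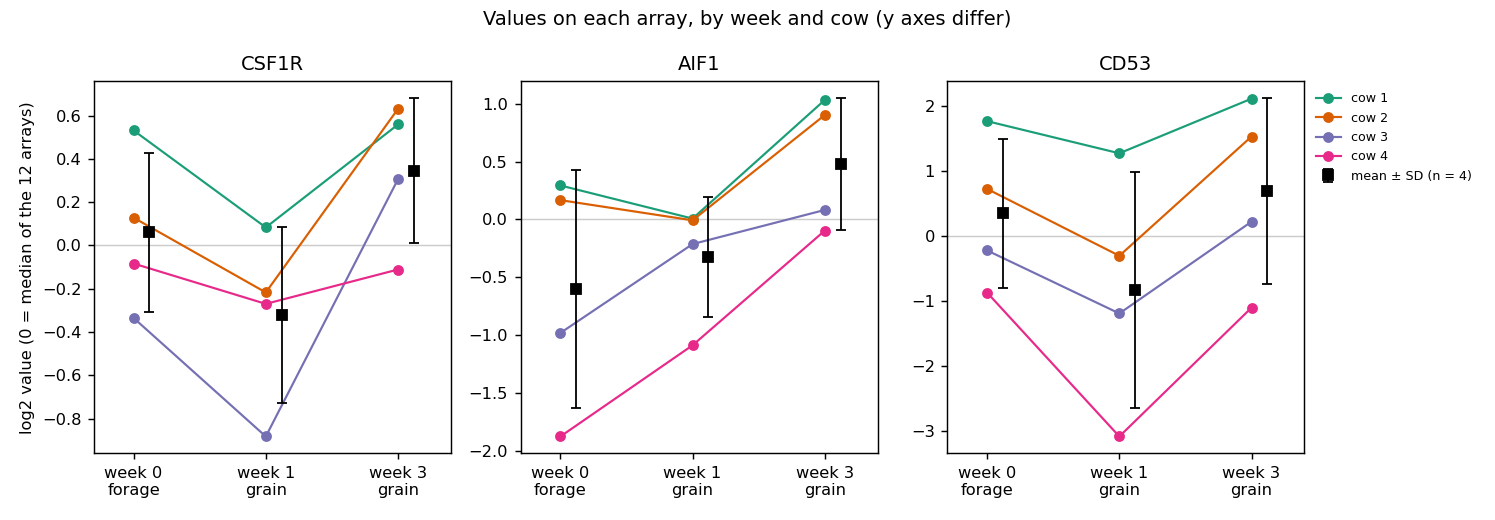
Log2 value of CSF1R, AIF1 and CD53 on each array (y axis, 0 is the median of the 12 arrays, scales differ between panels) at weeks 0, 1 and 3 (x axis), with a coloured line for each cow and black squares for the weekly mean ± SD (n = 4). Every line goes up between week 1 and week 3, and the lines of the cows keep nearly the same order in all weeks.

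The first week of grain was set against forage to describe the early response. CSF1R averaged -0.32 in week 1 against 0.06 in week 0, a difference of -0.38 ± 0.24 (SE of a fit with no term for the cow, n = 4), or 1.30-fold lower. The difference lay between -0.55 and -0.19 in the 4 cows. CD53 averaged -0.82 in week 1 against 0.35 in week 0, a difference of -1.17 ± 0.98 (SE, n = 4), or 2.26-fold lower. Cow 4 had the widest drop of CD53, at -2.21, and cow 1 the narrowest, at -0.49, and without the week 1 array of cow 4 the mean difference was -0.42. Among all probe sets 3.39% were lower in all 4 cows in this comparison. AIF1 averaged -0.33 in week 1 against -0.60 in week 0, a difference of 0.27 ± 0.49 (SE, n = 4). Its differences were -0.29 and -0.17 in cows 1 and 2 against 0.77 and 0.79 in cows 3 and 4. Without the forage array of cow 4 the AIF1 difference was -0.15. The 2 cows with the lowest AIF1 on forage were thus the 2 in which it was higher in week 1. The difference contains the forage value, so a low forage value by itself raises it, and no pattern of response is read from this.

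The third week of grain was set against forage to describe longer feeding. AIF1 averaged 0.48 in week 3 against -0.60 in week 0, a difference of 1.08 ± 0.49 (SE, n = 4), or 2.11-fold higher. It was higher by 0.74 in cow 1, 0.74 in cow 2, 1.06 in cow 3 and 1.78 in cow 4. A share of 36.3% of all probe sets was higher in all 4 cows in this comparison, so agreement in sign alone was common. That share counts rises of any size on arrays that were not centred. The array medians of cows 1 to 4 were -0.022, -0.016, 0.00014 and -0.027 on forage. In week 3 they were 0.009, -7.2e-05, 0.016 and -0.025, higher in each cow. The part of this offset in the share was not tested. By mean difference AIF1 stood in place 45 from the top of the 24016 probe sets, CD53 in place 755 and CSF1R in place 1059. The genes were picked with results of these arrays known, so nothing is read from these places. CSF1R averaged 0.35 in week 3 against 0.06 in week 0, a difference of 0.29 ± 0.24 (SE, n = 4). Cows 2 and 3 gave 0.50 and 0.64, and cows 1 and 4 gave 0.03 and -0.03. CD53 averaged 0.69 in week 3 against 0.35 in week 0, a difference of 0.34 ± 0.98 (SE, n = 4), with 0.35, 0.80, 0.44 and -0.23 in cows 1 to 4. It was -0.13 without the week 3 array of cow 1 and -0.07 without the forage array of cow 4. CSF1R and CD53 thus had cows on both sides of 0 in this comparison.

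The third week was also set against the first, which asks how the response moved while grain was fed. CD53 averaged 0.69 in week 3 against -0.82 in week 1, a difference of 1.51 ± 0.98 (SE, n = 4), or 2.86-fold higher. It was higher by 0.84, 1.83, 1.41 and 1.98 in cows 1 to 4, and its mean difference was 0.76 without the week 1 array of cow 4. AIF1 averaged 0.48 in week 3 against -0.33 in week 1, a difference of 0.81 ± 0.49 (SE, n = 4), or 1.75-fold, with 1.02, 0.91, 0.29 and 0.99 in cows 1 to 4. CSF1R averaged 0.35 in week 3 against -0.32 in week 1, a difference of 0.67 ± 0.24 (SE, n = 4), or 1.59-fold, with 0.48, 0.85, 1.19 and 0.16 in cows 1 to 4. Of all probe sets 5.12% were higher in all 4 cows. The cow with the widest difference was cow 3 for CSF1R, cow 1 for AIF1 and cow 4 for CD53, so the genes did not share an order of the cows here. The comparisons with week 0 share the forage arrays, and those with week 1 share the arrays of that week, so the 3 sets of differences are not independent of each other.

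**Figure D2:**
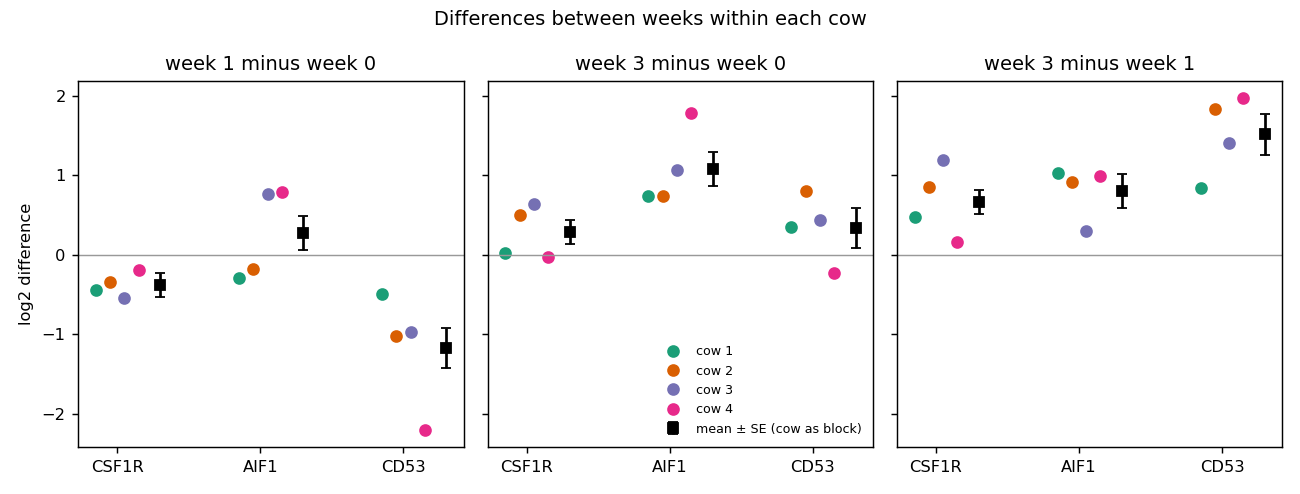
Log2 difference between weeks (y axis) for CSF1R, AIF1 and CD53 (x axis) in 3 panels, with a coloured point for each cow and a black square for the mean ± SE from the blocked fit (cow as the block). Week 3 minus week 1 is above 0 in every cow for each gene, and AIF1 in week 1 minus week 0 has 2 cows on each side of 0.

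Most of the error of these means came from the animals. With the cow as a block the SE of a weekly difference was 0.15 for CSF1R, 0.22 for AIF1 and 0.25 for CD53, against 0.24, 0.49 and 0.98 without it. No member passed limma's test adjusted over all probe sets in any comparison, with or without the block. The share of all probe sets that passed without the block was 0% in each of the 3 comparisons. With the block it was 0.00833% for week 1 against week 0 and 0% for the other 2. At an unadjusted p under 0.05 the members counted 0, 0 and 1 of 3 for week 1 against week 0, week 3 against week 0 and week 3 against week 1, where the shares of all probe sets were 5.15%, 3.88% and 4.88%. With the block the members counted 2, 1 and 3 of 3, where the shares were 7.61%, 6.12% and 7.58%. The choice of the genes used these contrasts, and nothing is read from the counts.

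The differences between cows were larger than those between weeks for AIF1 and CD53 and about equal to them for CSF1R. For CD53 75.9% of the variance over the 12 arrays lay between cows, 20.2% between weeks and 3.91% in the rest. For AIF1 the shares were 56.8%, 33.8% and 9.40%, and for CSF1R 42.1%, 42.1% and 15.8%. The medians over all probe sets were 27.0% between cows and 12.4% between weeks, and any grouping takes up some share by chance. The genes were also among the more variable on the array. Their SD over the 12 arrays was 1.51 for CD53, 0.82 for AIF1 and 0.44 for CSF1R, against a median of 0.12 over all probe sets. By SD they stood at ranks 45, 253 and 1307, and these values too count as used in the choice. Averaged over the weeks, CD53 was at 1.71, 0.65, -0.40 and -1.68 in cows 1 to 4, AIF1 at 0.44, 0.35, -0.37 and -1.02, and CSF1R at 0.39, 0.18, -0.30 and -0.15. Both cow 1 and cow 2 lay above both cow 3 and cow 4 in every week for all 3 genes, which held for 1.37% of all probe sets. The order 1, 2, 3, 4 in every week held for AIF1 and CD53 and for 0.167% of all probe sets. This division of the cows was looked for after the values were seen.

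**Figure D3:**
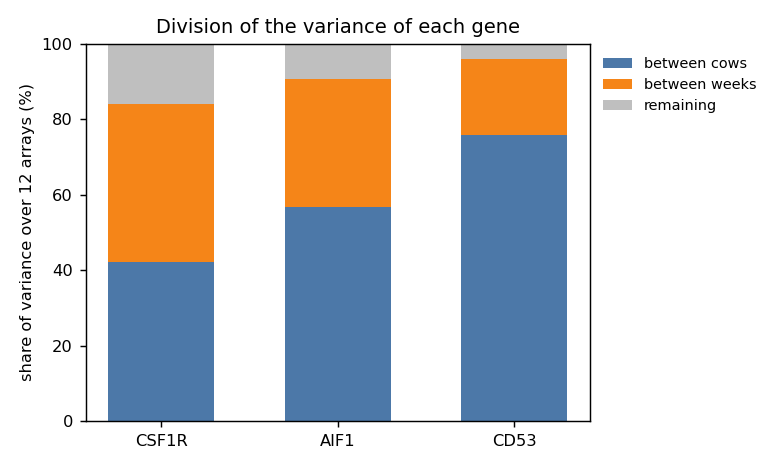
Share of the variance over the 12 arrays (y axis, percent) that lay between cows, between weeks and in the rest, as stacked bars for CSF1R, AIF1 and CD53 (x axis). The share between cows is 42.1% for CSF1R, 56.8% for AIF1 and 75.9% for CD53.

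Technical measures moved with the cows in part. Over 18 probe sets for bacterial and phage RNA spiked into the hybridization mix (the hybridization controls), the mean was 0.49 on the forage array of cow 1, 0.72 on the forage array of cow 2 and 0.48 on the week 1 array of cow 1, while the remaining arrays lay between -0.32 and 0.05. Over the 12 arrays their mean had a Pearson correlation of 0.32 with CSF1R, 0.32 with AIF1 and 0.46 with CD53. For 6 control transcripts the 3' minus 5' signal, which tracks intact RNA and labelling, had correlations of -0.0011, -0.21 and -0.31 with the same genes. The 12 arrays share 4 cows, so these are descriptions. Their part in the division of the cows was not tested. Without the 3 arrays of high controls and with the cow as a block, week 3 minus week 1 was 0.73 for CSF1R, 0.73 for AIF1 and 1.74 for CD53. In that fit week 1 minus week 0 was -0.40, 0.73 and -1.61, and week 3 minus week 0 was 0.34, 1.47 and 0.13. Each difference kept its sign. The fit holds forage arrays of cows 3 and 4 only, the cows in which AIF1 was higher in week 1 than on forage. The sign of AIF1 in week 1 minus week 0 thus rests mostly on the choice of arrays left out, and this fit is no check on it.

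Over the 12 arrays the 3 genes ranked the arrays alike, but once the mean of each cow was taken out the agreement was uneven. The Pearson correlation was 0.76 between CSF1R and CD53 (Spearman 0.85), 0.73 between AIF1 and CD53 (0.87) and 0.60 between CSF1R and AIF1 (0.85). Without the cow means these Pearson values were 0.75, 0.28 and 0.40. With the weekly means taken out as well they were -0.04, -0.57 and -0.38, so no positive relation was left beyond cow and week. The points share cows and weeks, and no p is given.

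The genes with the most similar profile differed between the members. For CD53 the 5 genes with the highest Pearson correlation over the 12 arrays were PTPRC, the leukocyte phosphatase CD45, at 0.97, APBB1IP, an adaptor that activates integrins, at 0.97, LCP1, an actin-bundling protein of leukocytes, at 0.96, SORL1, a sorting receptor, at 0.96, and LAPTM5, a lysosomal protein of leukocytes, at 0.95. For CSF1R they were BOLA-DRB3, BOLA-DRA and BOLA-DQA1, which are MHC class II chains that present antigen, at 0.92, 0.91 and 0.90, the leukocyte actin regulator CORO1A at 0.92 and LBP, the lipopolysaccharide-binding protein, at 0.91. MHC genes have near-identical copies, so those probe sets may read several of them. For AIF1 they were SS18L2 at 0.94, the complement protein C3 at 0.91, NT5E, an enzyme that makes adenosine, at 0.89, CASP4, an inflammatory caspase, at 0.89 and LOC282255 at 0.88. No gene stood among the 5 of more than 1 member. CSF1R itself was at place 210 and AIF1 at place 289 in the order for CD53.

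After the cow means were removed the nearest genes were others, apart from BOLA-DRB3 for CSF1R and SS18L2 for AIF1. For CSF1R they were GSDMC, a gasdermin, at 0.98, BOLA-DRB3 at 0.97, BOLA-DQB1 at 0.96, SMPDL3B, a lipid-modifying enzyme, at 0.96 and MVP, the major vault protein, at 0.96. For AIF1 they were SPON1, a matrix protein, at 0.93, SS18L2 at 0.93, SLC66A3 at 0.92, KIAA0100 at 0.92 and SUOX, the sulfite oxidase, at 0.91. For CD53 they were N4BP2L1 at 0.96, NECTIN2, an adhesion molecule, at 0.96, KHNYN at 0.95, ST6GALNAC2, a sialyltransferase, at 0.95 and VPS11, a vesicle sorting protein, at 0.95. None of the leukocyte genes PTPRC, LCP1 and LAPTM5 was among these 5 for CD53.

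The ligands and partners of CSF1R and markers of leukocyte types were followed in lists chosen with earlier results of these arrays known. The 8 leukocyte lists held 125 genes, of which 80 were measured. None of the 80 passed limma's adjusted test in any comparison, with or without the cow as a block. At an unadjusted p under 0.05 they counted 3, 1 and 5 for week 1 against week 0, week 3 against week 0 and week 3 against week 1, or 3.75%, 1.25% and 6.25%. All 9155 genes gave 6.61%, 5.02% and 6.84%. With the block the shares of the 80 were 12.5%, 2.5% and 20%, against 10.2%, 8.02% and 10.6% of all genes. With the block the share of the leukocyte genes was above that of all genes in week 3 against week 1, where it came to 16 genes. It was below the share of all genes in week 3 against week 0. In week 1 against week 0 the leukocyte share was slightly above, at 10 genes. That order turned when the 3 arrays of high controls were dropped and the block kept, at 8.75% against 13.2% of all genes. In week 3 against week 1 the same fit gave 20% against 15.5%. Without the block and with all arrays the leukocyte share was below that of all genes in each comparison.

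CD53 is itself carried by most leukocytes, and other pan-leukocyte genes were followed beside it. In week 1 against week 0, 10 of the 15 measured were lower, with a median of -0.13, where the median of all genes was 0.02. In week 3 against week 1, 14 of 15 were higher, with a median of 0.35 against -0.0078 for all genes. In week 3 against week 0 all 15 measured were higher, with a median of 0.13 against 0.02. These medians kept their signs when arrays were quantile-normalized or centred, but with the 3 arrays of high controls left out the first turned to 0.05, with 10 of 15 higher, or -0.12 with the cow as a block. PTPRC was at -0.51 ± 0.53 (SE, n = 4) in week 1 against week 0 and at 0.79 ± 0.53 in week 3 against week 1. It has 3 probe sets, of which 2 had the opposite sign in the first comparison and 1 in the second. CORO1A was at -0.89 ± 0.64 and 1.52 ± 0.64, LCP1 at -0.65 ± 0.44 and 0.68 ± 0.44, LAPTM5 at -0.51 ± 0.48 and 0.63 ± 0.48 and ITGB2, the chain shared by leukocyte integrins, at -0.13 ± 0.44 and 0.45 ± 0.44 in the same comparisons. VAV1, a signalling protein of blood cells, was at 0.06 ± 0.07 and 0.07 ± 0.07, and 1 of its 2 probe sets was opposite in the second. Of these 15 genes 6 had cows 1 and 2 above cows 3 and 4 in every week, as the members did, namely ARHGDIB, CORO1A, LAPTM5, LCP1, LCP2 and RAC2.

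The macrophage and monocyte genes split into some that varied widely and others that were nearly flat. Of the 16 measured, 7 had an SD over the arrays above the 90th percentile of all probe sets, 0.34. In week 1 against week 0, 9 were lower, with a median of -0.11, in week 3 against week 0, 12 were higher, with a median of 0.06, and in week 3 against week 1, 10 were higher, with a median of 0.07. Of all genes 63.3%, 64.5% and 40.8% were higher in week 1 against week 0, week 3 against week 0 and week 3 against week 1. After each array was centred on its median these shares were 47.6%, 51.9% and 53.6%. Of the 16 genes 11 were then lower in the first comparison, 11 higher in the second and 13 higher in the third. Without the 3 arrays of high controls the first median was 0.06, or 0.03 with the cow as a block. CD14, a co-receptor for lipopolysaccharide, was at 1.43 ± 0.46 (SE, n = 4) in week 3 against week 1 and higher in all 4 cows (limma, adjusted p = 0.773). FCGR2B, an inhibitory receptor for antibody, was at 1.59 ± 0.56 (adjusted p = 0.860), and CTSS, a lysosomal protease of antigen-presenting cells, at 0.66 ± 0.35. Both were higher in all 4 cows in that comparison and lower in all 4 in week 1 against week 0, at -0.69 ± 0.56 and -0.28 ± 0.35. CD68, a lysosomal glycoprotein, was at -0.55 ± 0.50 in week 1 against week 0 and 0.34 ± 0.50 in week 3 against week 1. The chains of complement C1q, which tissue macrophages secrete, differed widely between animals. They were named after their values were seen. C1QA averaged 1.45, 0.93, -0.87 and -3.42 in cows 1 to 4, C1QB 2.07, 0.87, -0.12 and -0.97 and C1QC 1.83, 1.38, -0.36 and -1.71. The averages of AIF1 and CD53 had the same order of cows. Unlike AIF1 and CD53, none of these chains kept that order in every week. Cow 2 was above cow 1 in week 3 for C1QA and C1QC, and cow 2 was the lowest in week 1 for C1QB.

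**Figure D4:**
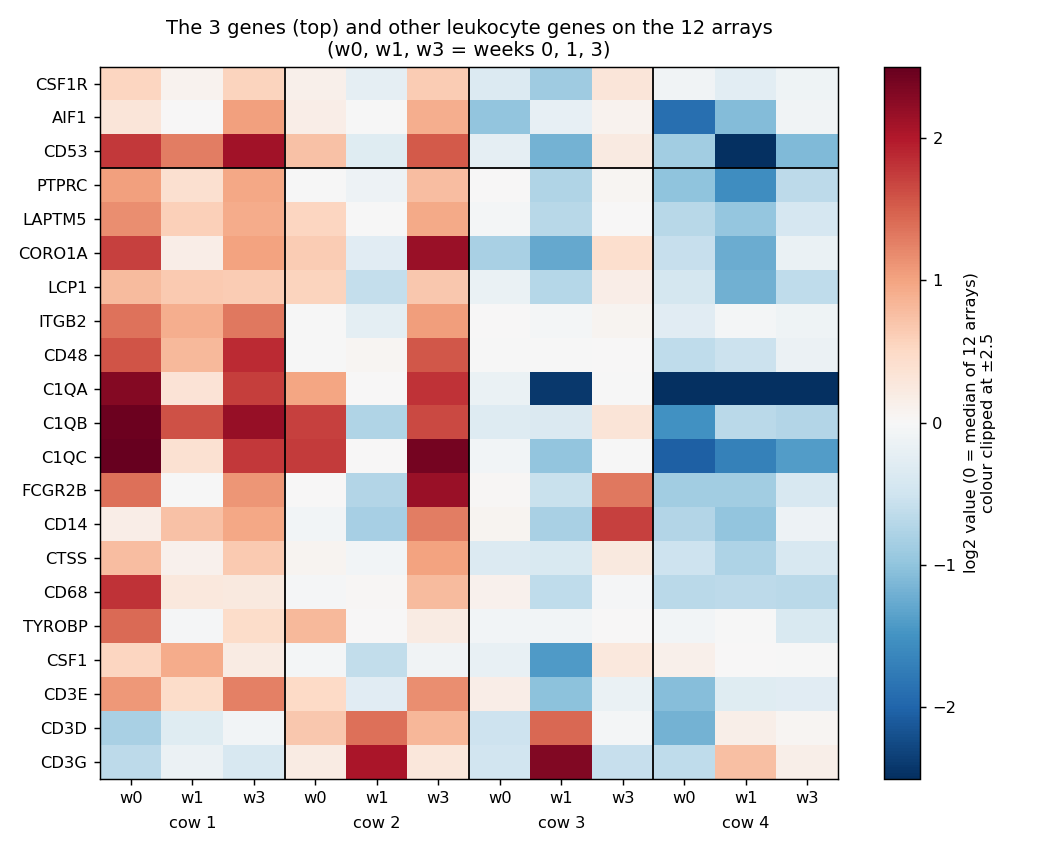
Log2 value (colour, 0 is the median of the 12 arrays, clipped at the ends of the colour bar) of CSF1R, AIF1 and CD53 (top) and of 18 other genes, picked for display after their values were seen (rows), on the 12 arrays ordered by cow and week (columns). Red prevails in cows 1 and 2 and blue in cows 3 and 4 for most rows, and CD3D and CD3G at the bottom go otherwise.

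Of the ligands and partners of CSF1R 11 of 17 were measured, and 4 were higher in week 1 than in week 0, 5 in week 3 than in week 0 and 7 in week 3 than in week 1. Their medians were -0.04, -0.0057 and 0.04 in week 1 against week 0, week 3 against week 0 and week 3 against week 1. CSF1, the main ligand, was at -0.38 ± 0.40 (SE, n = 4) in week 1 against week 0 and at 0.37 ± 0.40 in week 3 against week 1, and 1 of its 2 probe sets had the opposite sign in both. IL34, the other ligand, which keratinocytes make in mice, was at 0.03 ± 0.08 and 0.01 ± 0.08. TYROBP, an adaptor that carries signals in myeloid cells, was at -0.55 ± 0.31 and 0.10 ± 0.31, CEBPA, a transcription factor of myeloid cells, at -0.04 ± 0.10 and -0.13 ± 0.10, and INPP5D, a phosphatase that dampens such signals, at -0.06 ± 0.08 and -0.03 ± 0.08, with 1 of its 2 probe sets opposite in both. The week 1 value of TYROBP rests on cows 1 and 2, at 1.42 and 0.82 on forage and -0.04 and 0.02 in week 1. Cows 3 and 4 were at -0.067 and -0.067 on forage and -0.067 and -0.009 in week 1. The forage arrays of cows 1 and 2 are among the 3 of high controls. SPI1 and CD163 were not analysed here.

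Genes of other leukocytes differed in direction. Of the T and NK cell genes 16 of 19 were higher in week 1 than in week 0, with a median of 0.03, near that of all genes, and 9 were so after each array was centred. CD3G and CD3D, chains of the T cell receptor complex, were at 1.63 ± 0.49 and 1.12 ± 0.48 (SE, n = 4) in that comparison and higher in all 4 cows, while CD3E, another chain of the complex (named after its value was seen), was at -0.46 ± 0.52. In week 3 against week 1 they were at -1.37 ± 0.49, -0.47 ± 0.48 and 0.79 ± 0.52. CD3E thus had the signs of CSF1R and CD53 in both comparisons, and CD3G and CD3D the opposite ones. LAT, a T cell adaptor, was at -0.06 ± 0.05 and -0.0069 ± 0.05, and 2 of its 3 probe sets differed from it in sign in the first comparison and 1 in the second. The median of the list was 0.02 in week 3 against week 0 and -0.0082 in week 3 against week 1.

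Among B and plasma cell genes IGHM, the heavy chain of IgM, was at -1.54 ± 1.11 in week 1 against week 0 and 2.23 ± 1.11 in week 3 against week 1, JCHAIN, which joins IgM and IgA, at -0.63 ± 0.73 and 1.18 ± 0.73, and the B cell kinase BLK at -0.09 ± 0.08 and -0.01 ± 0.08. The 5 measured genes of that list had medians of -0.09, 0.03 and -0.01 in the 3 comparisons as ordered above. The neutrophil gene S100A9, a subunit of calprotectin that stressed keratinocytes also make, was at -0.86 ± 0.27 in week 1 against week 0 and lower in all 4 cows, and at 0.85 ± 0.27 in week 3 against week 1 and higher in all 4 (limma, adjusted p = 0.773). Its partner S100A8 was at -0.10 ± 0.08 and 0.06 ± 0.08, and MPO, the neutrophil peroxidase, at 0.07 ± 0.04 and -0.05 ± 0.04. The 6 neutrophil genes had medians of -0.03, 0.0018 and 0.01. The 4 mast cell genes had medians of 0.01, 0.0026 and -0.05, with TPSB2, a tryptase, at 0.37 ± 0.31 and -0.43 ± 0.31, HDC, which makes histamine, at 0.03 ± 0.09 and 0.11 ± 0.09, and the receptor KIT at -0.0041 ± 0.06 and 0.07 ± 0.06, where 3 of the 4 KIT probe sets had the opposite sign in both. The 4 dendritic cell genes, among them CD83, LAMP3 and CD1B, lay between 0.03 and 0.06 in week 1 against week 0, had medians of 0.04, 0.02 and -0.01, and held none with an SD above the 90th percentile.

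**Figure D5:**
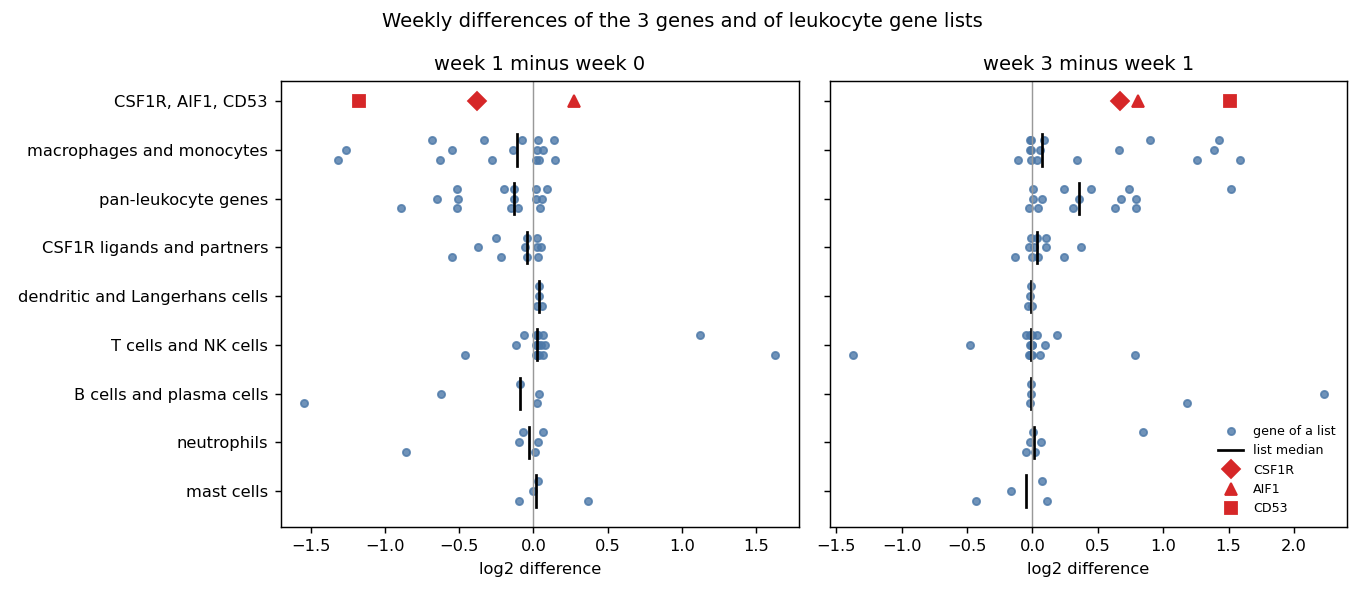
Log2 difference (x axis) in week 1 minus week 0 (left) and week 3 minus week 1 (right) for CSF1R, AIF1 and CD53 (red symbols, top row) and for each measured gene of 8 leukocyte lists (blue points, list medians as black bars). The members and several macrophage and pan-leukocyte genes lie right of 0 in week 3 minus week 1, while 6 of the 16 macrophage genes lie left of it. Many genes of the other lists lie close to 0, but IGHM, JCHAIN, S100A9 and CD3E lie well to the right and CD3G and CD3D to the left.

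The other tetraspanins, the protein family of CD53, had median differences near 0. The 13 measured had medians of 0.01, 0.02 and 0.0087 in week 1 against week 0, week 3 against week 0 and week 3 against week 1, and the first turned to -0.01 after each array was centred. TSPAN13 was at 0.68 ± 0.17 (SE, n = 4) in week 3 against week 0 and higher in all 4 cows (limma, adjusted p = 0.809), TSPAN3 at 0.10 ± 0.11 and CD9, common on epithelial cells, at -0.04 ± 0.03.

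Markers of other cell types of the papilla are given beside the 3 genes, and their part in the values of those genes was not tested. None of the epithelial, fibroblast, endothelial and smooth muscle or erythrocyte genes passed limma's adjusted test in any comparison, with or without the cow as a block. At an unadjusted p under 0.05 the epithelial genes counted 2, 2 and 1 of 8 in week 1 against week 0, week 3 against week 0 and week 3 against week 1. The fibroblast genes counted 5, 3 and 3 of 9, the endothelial and smooth muscle genes 2, 1 and 0 of 11 and the erythrocyte genes 0 of 4 in each. The shares of all genes were 6.61%, 5.02% and 6.84%. The epithelial and the endothelial and smooth muscle genes so counted were all lower. Of the fibroblast genes so counted 4 were higher and 1 lower in week 1 against week 0, and all were higher in the other comparisons. The mean over 8 basal and suprabasal epithelial genes was 0.06 to 0.30 on the forage arrays, -0.17 to 0.11 on those of week 1 and -0.24 to -0.10 on those of week 3, where 6 of 8 genes were lower in week 1 than in week 0 and 5 of 8 in week 3 than in week 0, while 5 of 8 were higher in week 3 than in week 1. The medians over the 8 genes were -0.24, -0.08 and 0.03 in the same comparisons, so the mean and the median differ in sign in the last. KRT5, a basal keratin, was at -0.33 ± 0.11 and -0.15 ± 0.11 (SE, n = 4) in week 1 against week 0 and week 3 against week 0, PKP1 at -0.34 ± 0.11 and -0.27 ± 0.11 and DSG1, both of desmosomes, at -0.65 ± 0.72 and -2.37 ± 0.72, the value of DSG1 in week 3 weighing most in the mean. The mean over 9 fibroblast genes was -0.39 to 0.12 on forage, -0.30 to 0.23 in week 1 and 0.08 to 0.27 in week 3, and 8 of 9 were higher in week 3 than in week 1, with COL3A1, COL1A1 and COL1A2 at 0.29 ± 0.13, 0.24 ± 0.19 and 0.45 ± 0.20, and 1 of the 2 COL1A1 probe sets had the opposite sign. DCN, a fibroblast proteoglycan named after its values were seen, had the cows in the order 1, 2, 3, 4 in every week, as AIF1 and CD53 did. The 11 genes of endothelium and smooth muscle had medians of -0.05, -0.04 and -0.01 in week 1 against week 0, week 3 against week 0 and week 3 against week 1. PECAM1, an adhesion molecule of endothelium that leukocytes also carry, was at -0.30 ± 0.12 and 0.27 ± 0.12 in week 1 against week 0 and week 3 against week 1, DES, a filament of muscle, at -0.92 ± 0.31 and -0.05 ± 0.31, and CNN1 at -0.28 ± 0.22 and -0.22 ± 0.22. The erythrocyte genes HBA, HBB and ALAS2 lay between 0.03 and 0.04 in week 1 against week 0 and the 4 of that list had medians of 0.03, 0.03 and -0.0076, which is smaller than any weekly difference of the 3 genes.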

How the data were processed

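Biotin-labelled cRNA from 10 µg of total RNA was hybridized to each of the 12 Affymetrix arrays, per the labels' protocols. The deposited log2 values were made with GCRMA, per the submitters' processing notes, with its version not given in the sources used here. Each probe set has a median of 0 over the 12 arrays in the deposited table. The log base was not stated and was taken as 2, since the widest range of any probe set, 11.2, read in natural logs equals 74399-fold, more than the 65535 levels that a 16-bit scanner can record. GCRMA's background step can compress or widen differences of dim probe sets, and brightness is not in the table.

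All 24016 probe sets other than 112 controls were tested two-sided in R 4.3.3 by limma 3.58.1 (lmFit, eBayes) on weekly means without a cow term, and adjusted with the Benjamini-Hochberg method at 0.05. No filter was applied. Arrays of a cow deviated together from the weekly means, where correlations lay at 0.32 to 0.69 for arrays of the same cow and at -0.57 to 0.06 for those of different cows over the probe sets above the 40th percentile of SD, and same-numbered arrays come from the same animal, so the cow as a block was fitted beside it. Probe sets naming 1 gene (13292) were named from the platform annotation and updated through the ARS-UCD2.0 gene table, where 13263 matched. Non-member genes are shown by their probe set of largest SD.

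The members and the 13 lists were chosen with earlier results of these data known. Named from each list were the 3 genes of smallest p in the F test of the 3 weeks, plus CSF1, IL34, TYROBP, SPI1, PTPRC, ITGB2, CD14, CD68, CD163 and LAPTM5, and the 5 genes most correlated with each member. No depth applies, and the number of arrays limits the precision.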

Additional observations from a re-analysis of the deposited data

How the results depend on the processing

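The differences of the 3 genes were recomputed under 23 alternatives. CSF1R and AIF1 in week 3 against week 0, all 3 genes in week 3 against week 1, and CSF1R and CD53 in week 1 against week 0 kept their sign in all 23. Several of the 23 cannot move a difference, so the count overstates how far the signs were tried. These are the cow as a block, a robust prior variance, which changes the SE only, and leaving out an array of the week outside the comparison. AIF1 in week 1 against week 0 turned to -0.34 with array weights and to -0.15 without the forage array of cow 4. CD53 in week 3 against week 0 turned to -0.13 without the week 3 array of cow 1 and to -0.07 without the forage array of cow 4. Leaving out 1 array leaves the cows unbalanced, and the cows differ. Leaving out 1 array or 1 cow in turn, week 1 minus week 0 ranged from -0.52 to -0.19 for CSF1R, -0.15 to 0.57 for AIF1 and -1.87 to -0.42 for CD53. Week 3 minus week 0 ranged from 0.15 to 0.44, 0.65 to 1.38 and -0.13 to 0.94, and week 3 minus week 1 from 0.48 to 0.84, 0.55 to 1.00 and 0.76 to 2.21, in the same order of genes. The lowest value of CD53 in week 3 against week 1, and the one nearest 0 in week 1 against week 0, came without the week 1 array of cow 4. With array weights CSF1R was at -0.54 and CD53 at -2.83 in week 1 against week 0, and AIF1 at 1.42 and CD53 at 3.40 in week 3 against week 1. Without the 3 arrays of high hybridization controls, which leaves forage arrays of cows 3 and 4 only, AIF1 was at 0.99 in week 1 against week 0 and 1.91 in week 3 against week 0, and CD53 at 1.23 in week 3 against week 0 and 2.21 in week 3 against week 1. The cow as a block, the paired fit, left each difference as it was and changed no member's call. With array weights 1 member, CD53 in week 1 against week 0, passed the adjusted test, in a fit that called 9970 of 24016 probe sets. The choice of the genes used this contrast, and nothing is read from that call. No member passed under any of the other alternatives.

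Over all probe sets the adjusted calls were 0 in each comparison. For week 1 against week 0 they were 2 with the replicate block, 9970 with array weights, 5 without the 3 arrays, 1 without them and with the block, and 0 to 45 leaving out 1 array or cow, the most without the week 1 array of cow 1. For week 3 against week 0 they were 2 after quantile normalization, 7 with array weights, 6 without the 3 arrays and 0 to 2 leaving out 1 array or cow. For week 3 against week 1 they were 97 with array weights, 12 without the 3 arrays and 0 to 38 leaving out 1. Of the 80 leukocyte genes 28 were called with array weights in week 1 against week 0 and 2 in week 3 against week 1, and 0 under the other alternatives. The causes were not tested.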
